A study of Mus musculus with 32 samples.

Results

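Solute carriers are membrane proteins that move amino acids, sugars, ions, vitamins and other small molecules across the cell surface and the membranes of organelles. The genes described here are the 178 expressed solute carriers of cultured mouse embryonic stem cells. A member had a symbol made of Slc, a family number, the letter a and a member number, and a mean of at least 2 CPM (the count relative to the library total) over all 32 libraries. They were thus chosen by their mean CPM, which did not compare the arms. Slc2a1, Slc2a3, Slc2a4, Slc7a11 and Slc25a31 were left out of the group by its definition. Of 329 symbols of this form among 24890 gene rows, 178 met the limit, and all 178 were tested. They were sorted by cargo and place, from textbook knowledge of each family, into 38 carriers of amino acids and their relatives, 17 of sugars, 49 of ions, 33 of the mitochondrial Slc25 family and 41 others. The limit fell between Slc25a24, Slc38a8 and Slc36a4 just inside, with means of 2.07, 2.12 and 2.13 CPM, and Slc25a27, Slc27a2 and Slc9a7 just outside, with 1.999, 1.86 and 1.86 CPM.

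The cells were of the wild-type E14 line, grown on gelatin in serum medium with 1000 U/mL LIF, 3 µM of the GSK3 inhibitor CHIR99021 and 1 µM of the MEK inhibitor PD0325901. The arm named ESC received nothing further and served as the control, and the arm named NrESC was kept in the same medium plus 10 µM T0901317, which activates the liver X receptors (LXR), nuclear receptors for oxysterols. Polyadenylated RNA was taken from each arm at passages 0, 2, 4, 6, 8, 10, 12 and 14, in 2 libraries per arm and passage. The labels mark NrESC as treated at passage 0 too and do not say for how long. Nor do they state that paired libraries are independent cultures, and the p-values therefore measure only the spread between these samples. All cells came from a single line. Passages of an arm follow one another, and the labels name no separate cultures. The 8 passages of an arm may therefore not be independent replicates of the treatment.

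Library totals ran from 24989652 to 45818054 counts in ESC and from 25062540 to 50463489 in NrESC. The 7 embryonic stem cell markers summed to 5751 to 6849 CPM in ESC libraries and to 5011 to 6767 in NrESC, with none at 0, so the markers of the labelled cell type were present. Of the lists for other cell types, 7 trophectoderm markers summed to 101 to 135 CPM in ESC and to 138 to 183 in NrESC, without overlap. The fibroblast list summed to 29.5 to 48.03 and 31.4 to 61.1 CPM, the primitive endoderm list to 168 to 275 and 210 to 317 CPM, and the 4 genes found of the 2-cell-like list to 12.6 to 96.2 and 5.47 to 19.3 CPM. No marker was at 0 in every library, and the part of such cells in the results below was not tested. The NrESC libraries of passage 8 differed from those of the other passages: 82 of the 178 members had their highest NrESC level there, and 37 their lowest. Such extremes were not counted over all genes. The counts over all members and by class are given with and without passage 8. At that passage the mean NrESC sum was 5015 CPM for the stem cell markers, near the lowest of the NrESC range, and 60.5 CPM for the fibroblast and 315 CPM for the primitive endoderm list, both near the highest. Their part in the passage 8 values was not tested. In bulk RNA, fewer cells of a type and less RNA per cell cannot be told apart.

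Solute carriers work in cooperation. Sodium-coupled carriers bring in amino acids such as glutamine against their gradient, and exchangers such as the heteromer of Slc7a5 and Slc3a2 then trade them for leucine and other large neutral amino acids. The ion gradients that drive such uptake are themselves kept by pumps and ion exchangers, and carriers of the Slc25 family link the cytosol with the mitochondrial matrix. Growing stem cells use glutamine, essential amino acids and the single-carbon units made from serine, glycine and threonine.

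The first question was which carriers differed between the arms over the 8 passages, with the passage as the unit (counts of both libraries summed, 8 pairs, 7 residual degrees of freedom, edgeR quasi-likelihood test, adjusted p over all 15036 tested genes, threshold 0.05). Of the 178 members 82 were higher in NrESC and 50 lower, against 28.3% and 27.2% of all tested genes. By 1.5-fold or more 19 were higher and 9 lower, where the shares over all tested genes were 6.18% and 7%. The median log2 fold change of the members was 0.10, beside -0.00076 for all genes. Without passage 8 the counts were 81 and 49, and 15 and 10 by 1.5-fold or more. The 9 members with a mean under 2 CPM in either arm entered the group through the other arm and had to differ. They were Slc7a4, Slc8a2, Slc19a3 and Slc22a7, low in ESC, and Slc4a4, Slc5a1, Slc16a5, Slc36a4 and Slc38a8, low in NrESC, and all 9 were called. Among the 169 members at 2 CPM or more in both arms, 78 were higher and 45 lower, and 15 and 5 of these passed 1.5-fold.

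The calls were then counted by class of cargo, beside the 28.3% of all tested genes that were higher and the 27.2% that were lower. Among amino acid carriers 20 of 38 were higher and 11 lower, with a median of 0.17. Of 49 ion carriers 25 were higher and 8 lower, with a median of 0.15. The 33 mitochondrial carriers split evenly into 12 higher and 12 lower around a median of -0.0027, and the 17 sugar carriers into 8 and 7 around 0.05. Other carriers had 17 higher, 12 lower and a median of 0.07. Changes of 1.5-fold or more were counted for 13 amino acid carriers (8 higher, 5 lower), 6 ion carriers (5 and 1), 6 other carriers (4 and 2), 2 sugar carriers (1 and 1) and 1 mitochondrial carrier. Among the members at 2 CPM or more in both arms these counts were 7 and 4 for amino acid carriers, 4 and 0 for ion carriers, 2 and 1 for other carriers, and 1 and 0 each for sugar and mitochondrial carriers. Without passage 8 the calls over all members were 19 higher and 10 lower for amino acid, 11 and 12 for mitochondrial and 18 and 12 for other carriers, with the ion and sugar counts as above. Whether the classes differ was not tested.

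**Figure D1:**
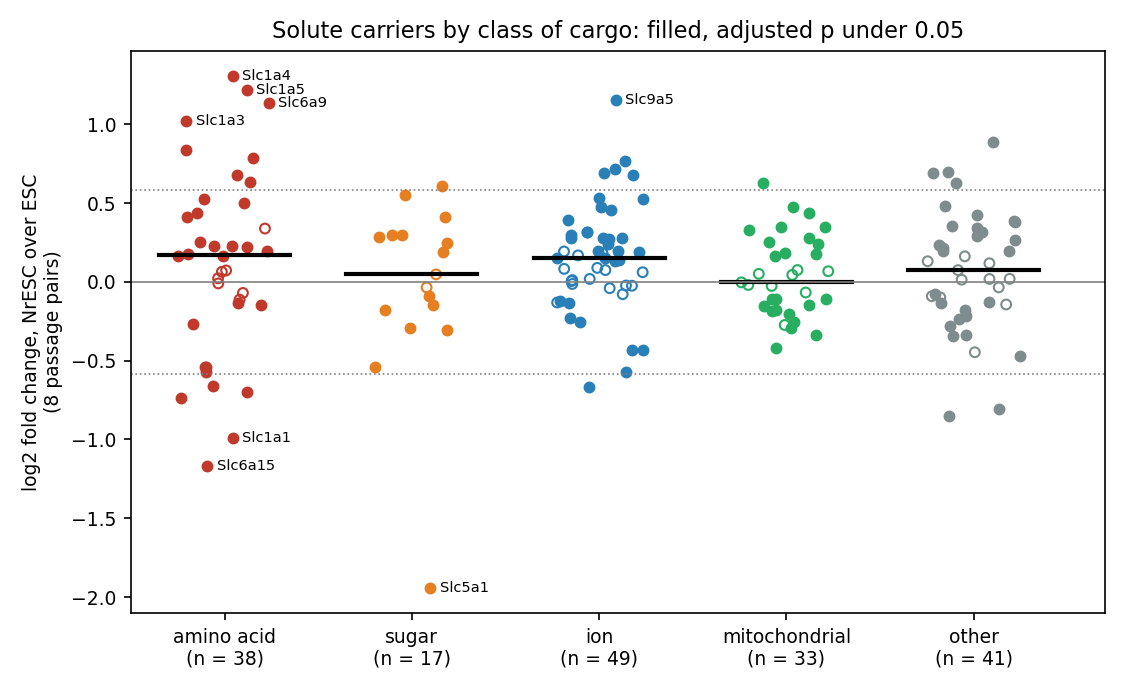
The log2 fold change of each of the 178 solute carriers, NrESC over ESC over 8 passage pairs (vertical axis), by class of cargo. Filled points passed an adjusted p of 0.05, thick bars are class medians, and dotted lines mark 1.5-fold. Amino acid carriers spread from -1.17 (Slc6a15) to 1.30 (Slc1a4), while mitochondrial carriers stayed between -0.42 and 0.63.

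Sodium-dependent carriers of neutral amino acids had the highest fold changes of all members. Slc1a4, which exchanges alanine, serine and cysteine, ran from 17.99 to 51.3 CPM over the 16 ESC libraries, with a median of 30.3, and from 50.5 to 94.9 in NrESC, with a median of 73.0. The library ranges touched only because ESC was highest at passage 0 and NrESC lowest at passage 6, and the passage means did not overlap. Its mean went from 30.9 ± 10.1 to 74.2 ± 14.1 CPM (SD, n = 8 passages), a log2 difference of 1.30 (SE 0.083, adjusted p = 1.45e-06, edgeR), and it was higher at 8 of 8 passages. Slc1a5, the main glutamine uptake system of many growing cells, ran from 59.3 to 102 CPM in ESC, with a median of 81.7, and from 141 to 279 in NrESC, with a median of 184. Every NrESC library thus lay above every ESC library, and both NrESC libraries of passage 8 lay above the rest. Its log2 fold change was 1.22 (SE 0.085, adjusted p = 2.37e-06, edgeR) and 1.13 without passage 8.

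The glutamate carriers of the same family moved in opposite directions. Slc1a3, a glial-type glutamate and aspartate carrier, ran from 1.21 to 3.29 CPM in ESC, with a median of 1.99, and from 3.03 to 6.04 in NrESC, with a median of 4.46. Its passage means did not overlap, although single libraries did, and its log2 fold change was 1.02 (SE 0.13, adjusted p = 8.28e-05, edgeR). Slc1a1, the epithelial and neuronal glutamate and cysteine carrier, ran from 2.23 to 15.4 CPM in ESC, with a median of 11.7, and from 1.97 to 9.28 in NrESC, with a median of 4.61. Both arms were low at passages 0 and 2: the ESC mean was 2.84 CPM at passage 0 and 14.8 at passage 8, and the NrESC mean 2.26 and 9.001. Slc1a1 fell by 0.99 on the log2 scale (SE 0.13, adjusted p = 9.05e-05, edgeR) and was lower at every passage. Of its transcript sequence 31% is made of 50-base words shared with other genes, so its count depends on how reads were divided among them.

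The RNA of both subunits of the leucine exchanger rose, and the protein was not measured. Slc7a5, the light chain that binds the amino acid, ran from 322 to 505 CPM in ESC, with a median of 412, and from 581 to 1026 in NrESC, with a median of 713. Slc3a2, the heavy chain that brings light chains to the cell surface, ran from 236 to 337 CPM in ESC, with a median of 272, and from 386 to 698 in NrESC, with a median of 468. For both genes the 16 libraries of each arm did not overlap, and NrESC at passage 8 was far above the other NrESC passages. The log2 fold change was 0.84 for Slc7a5 (SE 0.065, adjusted p = 5.1e-06, edgeR) and 0.78 for Slc3a2 (SE 0.072, adjusted p = 1.23e-05, edgeR). Without passage 8 these were 0.77 and 0.70.

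The other light chains and the cationic amino acid carriers of the Slc7 family gave a mixed picture, with 3 of 7 higher and 1 lower. Over all genes 28.3% were higher and 27.2% lower. Slc7a1, the widely expressed carrier of arginine and lysine, ran from 228 to 306 CPM in ESC, with a median of 264, and from 332 to 388 in NrESC, with a median of 352. Its libraries did not overlap, yet its log2 fold change was only 0.41 (SE 0.028, adjusted p = 2.27e-06, edgeR). Slc7a2, a related arginine carrier, went the other way, from 4.96 to 7.14 CPM in ESC, with a median of 6.04, to 2.75 to 6.07 in NrESC, with a median of 3.32. The arms met only at passage 0, where the means were 6.21 and 6.02 CPM, and Slc7a2 fell by 0.74 over the passages (SE 0.11, adjusted p = 0.000221, edgeR). Slc7a7, the light chain that exports cationic amino acids, rose by 0.53 (SE 0.11, adjusted p = 0.00214, edgeR) at 7 of 8 passages. Slc7a4, a member with no settled substrate, rose by 0.68 (SE 0.15), but its ESC mean was 1.69 CPM. Slc7a3, Slc7a6 and Slc7a8 were not called, with log2 fold changes of 0.02, 0.07 and -0.11.

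Promoters were compared for the C/EBP-ATF response element (TGATGNAAN on either strand), a sequence bound by Atf4 in genes that respond to amino acid shortage. Promoter windows of 300 bases, 250 before the annotated start and 50 after it, came from RefSeq for GRCm38.p6 and matched 133 of the 178 members by symbol. Slc7a5 and Slc1a5 were among the members without a window and were not searched. The windows of Slc1a4 (chr11:20332664-20332963, minus strand) and Slc7a7 (chr14:54417895-54418194, minus strand) held the element and are shown with it in capitals. That of Slc3a2 (chr19:8713848-8714147, minus strand), a carrier that also rose, is shown for contrast because these letters are not in its window. Each reads 5′ to 3′ in the direction of the gene.
Slc1a4: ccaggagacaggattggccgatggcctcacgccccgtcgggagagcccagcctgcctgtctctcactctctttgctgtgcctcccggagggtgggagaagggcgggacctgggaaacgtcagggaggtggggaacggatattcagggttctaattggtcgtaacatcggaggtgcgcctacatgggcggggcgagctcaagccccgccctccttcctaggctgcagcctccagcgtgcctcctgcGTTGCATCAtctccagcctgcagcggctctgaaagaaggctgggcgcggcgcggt
Slc7a7: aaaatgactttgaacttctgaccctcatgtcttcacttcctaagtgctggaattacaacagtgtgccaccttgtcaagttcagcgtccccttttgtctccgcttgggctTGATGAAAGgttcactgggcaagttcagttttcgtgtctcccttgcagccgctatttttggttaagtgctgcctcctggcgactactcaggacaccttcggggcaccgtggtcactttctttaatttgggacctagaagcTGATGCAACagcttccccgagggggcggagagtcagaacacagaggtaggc
Slc3a2: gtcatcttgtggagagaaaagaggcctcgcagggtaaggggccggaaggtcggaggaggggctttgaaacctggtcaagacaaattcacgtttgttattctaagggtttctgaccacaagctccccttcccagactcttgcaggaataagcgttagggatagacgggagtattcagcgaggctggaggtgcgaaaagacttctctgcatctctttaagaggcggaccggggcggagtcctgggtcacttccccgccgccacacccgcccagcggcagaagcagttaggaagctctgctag
In Slc1a4 the element begins 5 bases before the start site and reads on the opposite strand. In Slc7a7 it occurs 2 times, beginning 141 bases and 1 base before the start. The third member with a match was Slc50a1, and 3 of 133 members (2.26%) compare with 4.50% of the 27025 promoter symbols in the table, which include noncoding genes. Among the amino acid carriers with a window it was 2 of 26. A match describes letters only and says nothing of binding.

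Carriers of the Slc6 family, driven by sodium and chloride, split as the Slc1 and Slc7 families did. Slc6a9, the glycine carrier, ran from 3.13 to 8.18 CPM in ESC, with a median of 6.02, and from 9.02 to 14.3 in NrESC, with a median of 12.5. All NrESC libraries lay above all ESC libraries, and the log2 fold change was 1.14 (SE 0.086, adjusted p = 4.12e-06, edgeR), with 26.3% of its transcript in words shared with other genes. Slc6a15, a carrier of branched-chain amino acids and proline, ran from 6.79 to 16.03 CPM in ESC, with a median of 11.7, and from 2.55 to 8.10 in NrESC, with a median of 4.78. At each passage NrESC was the lower arm, although the arms overlapped across passages, and Slc6a15 fell by 1.17 (SE 0.13, adjusted p = 4.22e-05, edgeR). The proline carrier Slc6a7 rose by 0.64 (SE 0.11, adjusted p = 0.000411, edgeR) and the orphan member Slc6a16 fell by 0.66 (SE 0.12, adjusted p = 0.000691, edgeR). Slc6a6, which carries taurine, rose by 0.25 at a high level, from 389 ± 26.3 to 465 ± 45.02 CPM. The creatine carrier Slc6a8 was not called at -0.01 (SE 0.038, adjusted p = 0.847, edgeR).

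Of 10 sodium-coupled neutral amino acid carriers of the Slc38 family, 6 rose (60%) and 3 fell (30%), mostly by little. Over all genes 28.3% rose and 27.2% fell. The most abundant, Slc38a4, rose from 318 ± 13.4 to 374 ± 43.4 CPM (log2 fold change 0.23, SE 0.043, adjusted p = 0.000964, edgeR). Slc38a2, the glutamine and alanine carrier that cells induce when starved of amino acids, fell by 0.27 (SE 0.1, adjusted p = 0.0454, edgeR). The difference was largest at passage 8, where the means were 179 CPM in ESC and 82.9 in NrESC, and at passage 14 they were 173 and 174. Without passage 8 the log2 fold change was -0.15. Its call was lost in 4 of 18 settings, all of them with 1 passage left out. Slc38a8 fell by 0.70 from a low level, 2.62 ± 0.20 to 1.63 ± 0.37 CPM, and met the CPM limit through ESC. Slc43a1, a large neutral amino acid carrier that works without sodium, ran from 12.73 to 15.8 CPM in ESC, with a median of 13.9, and from 7.82 to 12.65 in NrESC, with a median of 9.45. These ranges did not overlap, and Slc43a1 fell by 0.54 on the log2 scale (SE 0.066, adjusted p = 5.68e-05, edgeR). Slc36a4, an amino acid carrier of the family to which the lysosomal proton-coupled carriers belong, fell by 0.57 (SE 0.11). Its mean was under 2 CPM in NrESC.

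**Figure D2:**
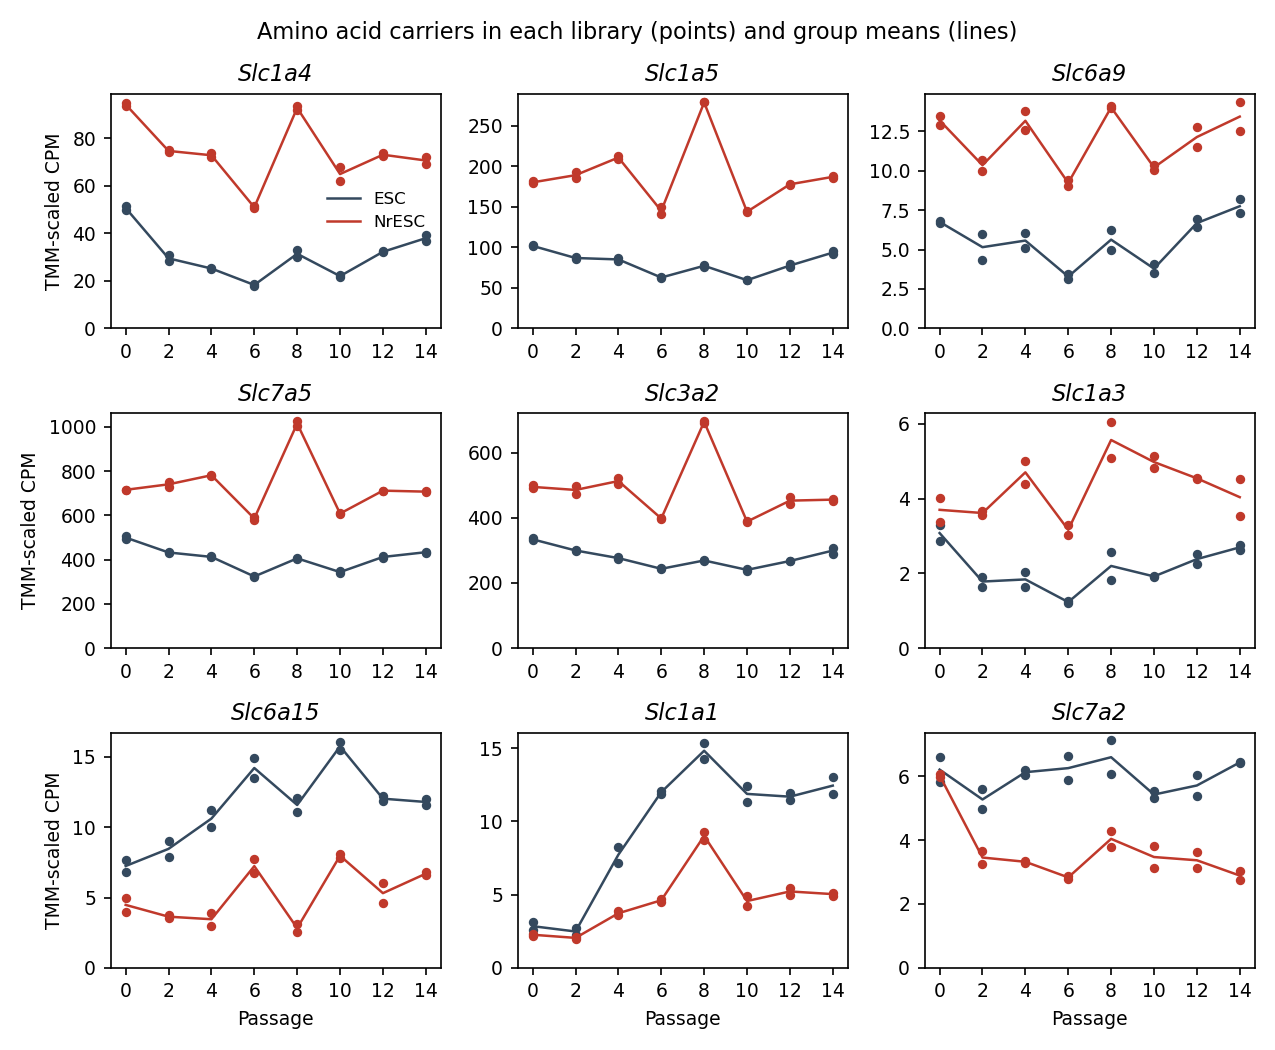
Levels of 9 amino acid carriers in TMM-scaled CPM (vertical axes, from 0) against passage, with 1 point per library and lines through the means of the 2 libraries of each group. Slc1a5, Slc6a9, Slc7a5 and Slc3a2 in NrESC lie above all ESC libraries, while Slc6a15, Slc1a1 and Slc7a2 in NrESC lie below the ESC mean of the same passage.

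Sugar carriers included the lowest fold change of all. Slc5a1, the sodium-glucose cotransporter known from the intestine, ran from 2.51 to 14.4 CPM in ESC, with a median of 7.45, and from 0.788 to 2.70 in NrESC, with a median of 1.59. The passage means did not overlap, and in ESC the level was 2.84 CPM at passage 4 and 10.8 at passage 6. Its log2 fold change of -1.94 (SE 0.25, adjusted p = 7.25e-05, edgeR) was the lowest of all 178 members, and at passage 8 it was -3.31. Since it met the CPM limit through ESC, a difference in this direction was built in. The related Slc5a11, a carrier of myo-inositol, fell by 0.31 (SE 0.1, adjusted p = 0.0216, edgeR), a call lost in 4 of 18 settings, while Slc5a3, the myo-inositol carrier that cells use against osmotic stress, rose by 0.55 (SE 0.11, adjusted p = 0.00118, edgeR).

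Slc2a8, a hexose carrier kept inside the cell, was the only sugar carrier to rise by 1.5-fold. It ran from 12.0 to 19.7 CPM in ESC, with a median of 16.1, and from 18.9 to 35.8 in NrESC, with a median of 22.5, a log2 difference of 0.61 (SE 0.069, adjusted p = 3.99e-05, edgeR). Without passage 8 it was 0.55, under the 1.5-fold line. The fructose carrier Slc2a5 rose by 0.30 (SE 0.089) and the hexose exporter Slc50a1 by 0.25 (SE 0.065), from 11.8 ± 1.03 to 14.1 ± 1.91 CPM. Carriers of nucleotide sugars, which feed glycosylation in the Golgi, were split: the UDP-galactose carrier Slc35a2 rose by 0.41 (SE 0.08), and Slc35a1, Slc35a4 and Slc35a5 fell by 0.09, 0.18 and 0.29. Of the sugar phosphate carriers Slc37a2 fell by 0.54 and Slc37a3 by 0.15, and the glucose-6-phosphate carrier Slc37a4 rose by 0.29. The calls of Slc2a5, Slc35a1, Slc35a4 and Slc37a3 were each lost in some of the 18 settings.

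Ion carriers rose more often than they fell. Slc9a5, a sodium-proton exchanger known from neurons, ran from 4.13 to 11.1 CPM in ESC, with a median of 7.62, and from 10.7 to 34.6 in NrESC, with a median of 15.1. The passage means did not overlap, and the NrESC mean at passage 8, 32.7 CPM, was far above the next. Its log2 fold change was 1.15 (SE 0.14, adjusted p = 4.97e-05, edgeR), with 1.01 outside passage 8. The Golgi exchanger Slc9a8 rose by 0.32 at 8 of 8 passages.

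Both sodium-calcium exchangers among the members rose, where 28.3% of all tested genes were higher. Slc8a2 went from 1.76 ± 0.47 to 3.08 ± 1.27 CPM (log2 fold change 0.77, SE 0.1, adjusted p = 0.000113, edgeR) and the potassium-dependent Slc24a1 from 5.39 ± 1.15 to 8.70 ± 1.84 CPM (0.69, SE 0.11, adjusted p = 0.000314, edgeR). Slc8a2 met the CPM limit through NrESC. All 3 anion exchangers of the Slc26 family rose too, against the same 28.3%, but groups this small are too few for shares to be compared. Slc26a6 rose by 0.72 (SE 0.081, adjusted p = 3.63e-05, edgeR), Slc26a11 by 0.53 and the sulfate carrier Slc26a2 by 0.20. Slc26a6 ran from 5.17 to 11.6 CPM in ESC, with a median of 6.04, and from 8.34 to 16.8 in NrESC, with a median of 9.90. Its arms overlapped because ESC was high at passage 0 alone, where the mean was 10.6 CPM.

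Of 7 bicarbonate carriers, which set cell pH with the sodium-proton exchangers, 2 were higher (28.6%) and 4 lower (57.1%), against 28.3% and 27.2% of all genes. Slc4a4, a sodium bicarbonate cotransporter, fell by 0.67 (SE 0.11, adjusted p = 0.000418, edgeR) from 2.70 ± 0.65 to 1.68 ± 0.34 CPM, but it met the CPM limit through ESC and had to differ. Slc4a2 and Slc4a5 each fell by 0.43 and Slc4a8 by 0.25, while Slc4a3 rose by 0.48 and Slc4a7 by 0.30. Among the cation-chloride cotransporters, Slc12a2, which loads cells with chloride, fell by 0.57 (SE 0.071, adjusted p = 6.29e-05, edgeR), from 54.5 ± 9.78 to 36.5 ± 6.35 CPM. The potassium-chloride exporters Slc12a4 and Slc12a7 rose by 0.39 and 0.15, as did Slc12a9 and Slc12a8, each by 0.28.

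Metal carriers mostly changed by less than 1.5-fold, with Slc11a1 as the exception. Slc11a1, an iron and manganese carrier known from macrophage phagosomes, ran from 12.4 to 25.3 CPM in ESC, with a median of 20.3, and from 18.5 to 48.1 in NrESC, with a median of 27.2. It rose by 0.68 (SE 0.072, adjusted p = 2.52e-05, edgeR) at 8 of 8 passages, whereas its close relative Slc11a2 was not called (0.01, SE 0.046, adjusted p = 0.843, edgeR). Of 10 zinc and metal importers of the Slc39 family 4 rose (40%) and 3 fell (30%), against 28.3% and 27.2% of all genes. Slc39a11 was highest at 0.53 and Slc39a9 lowest at -0.23. The libraries of Slc39a9 did not overlap, with 35.8 to 41.2 CPM in ESC and 26.01 to 35.6 in NrESC. Of 9 zinc exporters of the Slc30 family 3 rose (Slc30a1, Slc30a2 and Slc30a6) and none fell. Their 33.3% is near the 28.3% of all genes called higher, and the call of Slc30a6 was lost without replicate 2. Both copper carriers rose, Slc31a1 by 0.28 and Slc31a2 by 0.24, beside the 28.3% of all genes called higher. The phosphate carriers Slc20a1 and Slc20a2 were not called, at 0.17 (SE 0.076, adjusted p = 0.0776, edgeR) and -0.04 (SE 0.032, adjusted p = 0.311, edgeR).

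Mitochondrial carriers held the highest levels and the smallest changes. Slc25a23, a calcium-regulated carrier of ATP-magnesium and phosphate, was the only member of this family to pass 1.5-fold. It ran from 12.0 to 19.2 CPM in ESC, with a median of 15.0, and from 17.4 to 37.7 in NrESC, with a median of 22.4. Its log2 fold change was 0.63 (SE 0.06, adjusted p = 1.51e-05, edgeR) and 0.57 without passage 8. Slc25a39, which imports glutathione, rose from 261 ± 27.8 to 353 ± 41.5 CPM (0.43, SE 0.041, adjusted p = 1.48e-05, edgeR), and the citrate exporter Slc25a1 from 100.5 ± 16.6 to 128 ± 13.5 CPM (0.35, SE 0.046, adjusted p = 9.69e-05, edgeR). The iron carriers Slc25a28 and Slc25a37 rose by 0.28 and 0.26.

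Among the mitochondrial carriers that fell, Slc25a20, the carnitine-acylcarnitine carrier of fatty acid oxidation, went from 112 ± 12.1 to 83.9 ± 12.8 CPM (-0.42, SE 0.068, adjusted p = 0.000358, edgeR). The phosphate carrier Slc25a3 went from 501 ± 27.3 to 436 ± 31.4 CPM (-0.20, SE 0.039, adjusted p = 0.00106, edgeR). Both aspartate-glutamate carriers fell, Slc25a12 by 0.29 and Slc25a13 by 0.11, as did the ornithine carrier Slc25a15 by 0.18, where 27.2% of all tested genes were lower. The ADP/ATP carriers were not called: Slc25a5 was 596 ± 14.9 CPM in ESC and 596 ± 45.7 in NrESC, and Slc25a4 was 368 ± 34.3 and 382 ± 35.7. For Slc25a5, 33.8% of the transcript lies in words shared with other genes.

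Of the other carriers, several that handle vitamins and cofactors rose. Slc48a1, the haem carrier of lysosomes, ran from 16.1 to 28.4 CPM in ESC, with a median of 19.4, and from 27.3 to 41.1 in NrESC, with a median of 32.05. Its passage means did not overlap, and its log2 fold change was 0.70 (SE 0.071, adjusted p = 2.07e-05, edgeR). The thiamine carrier Slc19a3 rose by 0.63 (SE 0.1, adjusted p = 0.000446, edgeR) from 1.76 ± 0.53 CPM, the folate carriers Slc19a1 and Slc46a1 by 0.38 and 0.20 (the latter call lost in 5 of 18 settings, without passage 8 among them), and the riboflavin carrier Slc52a2 by 0.24. Slc19a2, a further thiamine carrier, fell by 0.13, the biotin and pantothenate carrier Slc5a6 by 0.23 and the ascorbate carrier Slc23a2 by 0.18. Slc13a5, which takes up citrate, rose from 4.76 ± 1.68 to 7.98 ± 3.52 CPM (0.69, SE 0.081, adjusted p = 4.76e-05, edgeR). Slc22a7, an organic anion carrier, rose from 1.67 ± 0.46 to 3.08 ± 0.75 CPM (0.89, SE 0.14, adjusted p = 0.000244, edgeR). Slc19a3 and Slc22a7 met the CPM limit through NrESC and had to differ.

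Nucleoside and monocarboxylate carriers included the other large falls. Slc28a3, a concentrative nucleoside carrier, ran from 2.82 to 6.85 CPM in ESC, with a median of 4.79, and from 1.80 to 4.05 in NrESC, with a median of 2.53. It fell by 0.85 (SE 0.17, adjusted p = 0.00126, edgeR) and was lower at 7 of 8 passages, with passage 2 as the exception. The equilibrative carriers Slc29a1 and Slc29a3 rose by 0.19 and 0.39, and for Slc29a3 the libraries of the arms did not overlap (40.9 to 53.0 and 57.5 to 70.5 CPM). Slc16a5, of the monocarboxylate family, fell by 0.80 (SE 0.11, adjusted p = 0.000148, edgeR) from 2.77 ± 0.70 CPM, and it too met the CPM limit through ESC. Slc33a1, which brings acetyl-CoA into the endoplasmic reticulum, fell by 0.47, with 30.7% of its transcript in shared words.

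The lactate carriers were abundant and did not follow the arms alone. Slc16a3, the lactate exporter of glycolytic cells, ran from 76.6 to 199 CPM in ESC, with a median of 145, and from 46.8 to 205 in NrESC, with a median of 93.7. ESC was the higher arm at passage 0, with means of 138 and 58.3 CPM, and the lower at passage 10, with 90.4 and 202. Its log2 fold change of -0.45 (SE 0.22, adjusted p = 0.0962, edgeR) did not pass, but without passage 10 it was -0.66 (adjusted p = 0.00247, edgeR). It was also called in both models on single libraries. Slc16a1, the general lactate and pyruvate carrier, fell by 0.08 (SE 0.03, adjusted p = 0.0424, edgeR), a call that was lost in 10 of 18 settings.

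Levels of different genes are compared here per transcript length, in TPM as deposited. The 178 members together made up 6578 ± 197 TPM in ESC and 7139 ± 281 in NrESC (SD, n = 8 passages). Mitochondrial carriers were the largest share in both arms, at 3389 ± 99.9 and 3392 ± 91.1 TPM. The summed level of the amino acid carriers went from 1264 ± 74.8 to 1729 ± 183 TPM, a ratio of 1.37, and was higher in NrESC at 8 of 8 passages. At passage 8 it was 2121 TPM. Most of this difference lay in Slc7a5, Slc3a2 and Slc1a5, the 3 amino acid carriers picked for the largest rise in TPM. Together they went from 456 ± 56 to 828 ± 159 TPM, while the other 35 went from 808 ± 37.4 to 901 ± 35.6 TPM, a ratio of 1.12. The lower ratio of the other 35 follows in part from this choice. Ion carriers summed to 973 ± 30.6 and 1054 ± 89.2 TPM, sugar carriers to 208 ± 6.96 and 210 ± 6.11 TPM and others to 745 ± 44.5 and 754 ± 45.6 TPM. These sums were not tested.

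The order of the single carriers was alike in both arms at the top. In ESC the ADP/ATP carrier Slc25a5 stood at 938 ± 32.8 TPM, the phosphate carrier Slc25a3 at 649 ± 35.3 and Slc25a4 at 560 ± 60.8. In NrESC the values were 925 ± 65.8, 556 ± 34.4 and 572 ± 51.9 TPM, so that Slc25a3 and Slc25a4 lay within their spread of each other there. Slc7a5 and Slc3a2 were next among the other classes, at 206 ± 26.7 and 197 ± 20.5 TPM in ESC and at 366 ± 65.9 and 338 ± 65.7 in NrESC. The levels of these partner chains lay within 1 SD of each other in both arms. The highest ion carrier was Slc20a1 at 127 ± 13.6 and 148 ± 38.1 TPM, the highest of the other carriers Slc29a1 at 146 ± 6.79 and 164 ± 8.84 TPM, and the highest sugar carrier Slc35a4 at 44.4 ± 3.54 and 39.1 ± 5.80 TPM.

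**Figure D3:**
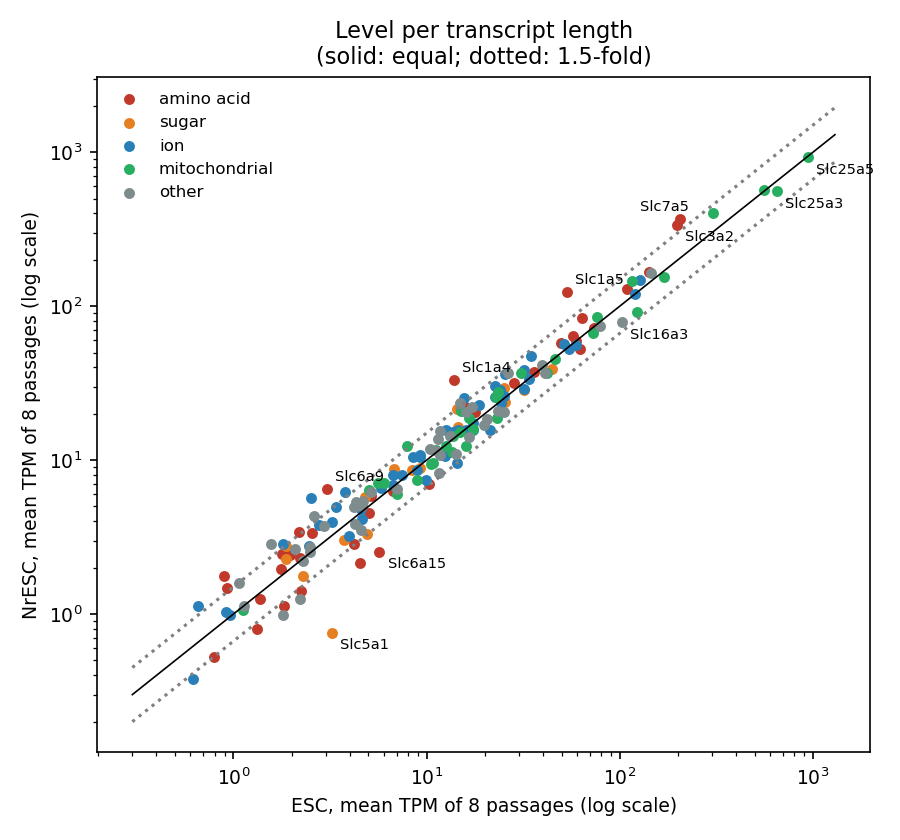
Mean TPM of 8 passages of each of the 178 solute carriers in ESC (horizontal, log scale) and NrESC (vertical, log scale), coloured by class. The solid line marks equal levels and the dotted lines 1.5-fold. Slc25a5 is highest in both arms, at 938 and 925 TPM, and Slc5a1 lies farthest below the line.

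Single passages were compared with the 2 libraries of each group as the unit (16 residual degrees of freedom, edgeR quasi-likelihood test). At passage 0, 62 of the 178 members were higher and 20 lower, where 17.6% and 14.8% of all genes were called. At passage 8 it was 96 and 51, against 35.2% and 34.6%, and at passage 14 it was 56 and 36, against 19.7% and 21.3%. The lower count at passage 0 fell to 13 without 1 of its NrESC libraries, replicate 1. Amino acid carriers had 15 higher and 4 lower at passage 0. At passage 8 the counts were 22 and 9, whereas passage 14 gave 18 and 9. Their median log2 fold change was 0.14, 0.33 and 0.13 at these passages, beside 0.0138, 0.00872 and -0.00353 for all genes.

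The same single-passage tests were read for the 28 carriers changed by 1.5-fold or more over the passages. These carriers were chosen by their change over the same passages, passage 8 among them. The counts below therefore describe them and are no separate evidence. Over all genes 17.6% were called higher and 14.8% lower at passage 0. At passage 8 it was 35.2% and 34.6%, and at passage 14 it was 19.7% and 21.3%. Of the 19 higher carriers passage 0 had 13 called, passage 8 had 19 and passage 14 had 17. Of the 9 lower carriers 3 were called at passage 0 (Slc5a1, Slc6a15 and Slc38a8), 7 at passage 8 and 9 at passage 14. Slc1a4, for example, had log2 fold changes of 0.89, 1.57 and 0.89 at these passages. Slc1a1 had -0.36, -0.72 and -1.31, and Slc7a2 -0.05, -0.70 and -1.16. The difference between the higher and the lower carriers at passage 0 was not tested. For 13 of the 19 higher carriers the difference was largest at passage 8, and their median there was 1.30, against 0.49 at passage 0 and 0.61 at passage 14.

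**Figure D4:**
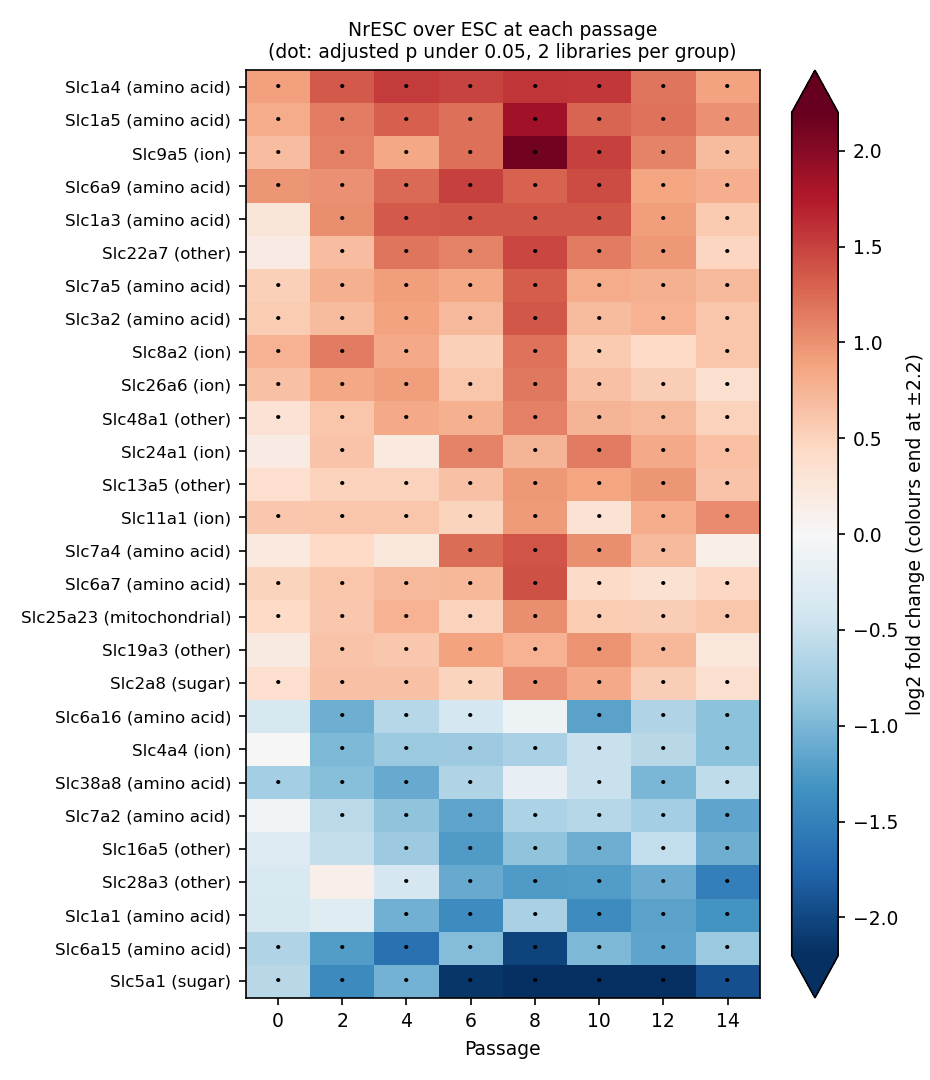
Log2 fold change, NrESC over ESC, of the 28 carriers changed by 1.5-fold or more (rows) at each passage (columns). Dots mark an adjusted p under 0.05 with 2 libraries per group, and colours end at ±2.2. The column of passage 8 is darkest for most higher carriers, and most lower carriers are pale at passage 0.

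A straight trend over passage number was fitted in each arm (12 residual degrees of freedom). No member had a slope in NrESC that differed from that in ESC. Over all genes this test called 0% in the higher direction and 0.0133% in the lower, and DESeq2 called no member either. At an unadjusted p under 0.05 there were 0 members with a higher and 6 with a lower slope in NrESC (edgeR). The share of all genes at this unadjusted threshold was not counted, so no trend of the members can be read from these counts. In ESC itself 2 members rose with passage and 1 fell, where 0.219% and 0.259% of all genes did. Slc4a11, a divergent member of the bicarbonate family, rose by 0.072 per passage on the log2 scale (SE 0.014, adjusted p = 0.0397, edgeR), with 9.41 CPM at the first passage and 20.04 at the last. The nucleoside carrier Slc28a1 rose by 0.057 per passage (SE 0.01, adjusted p = 0.0363, edgeR), from 7.501 to 13.9 CPM. The zinc carrier Slc30a2 fell by 0.071 per passage (SE 0.015, adjusted p = 0.0437, edgeR), with 73.3 CPM in passage 0, then 39.4 in passage 4 and 31.95 in passage 14. None of the 3 calls was made without passages 0 and 2.

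Genes that work beside the carriers were read from a list of 27, all of them tested, of which 12 rose and 5 fell, where 28.3% and 27.2% of all genes did. By 1.5-fold or more 4 rose and none fell, against 6.18% and 7% of all genes, and all 4 belong to the response to amino acid shortage and protein stress. The list was chosen with earlier results of these data known and holds several genes of this response. These counts are therefore no independent support. Atf4, the transcription factor of that response, ran from 270 to 345 CPM in ESC, with a median of 300.1, and from 424 to 502 in NrESC, with a median of 451, a log2 difference of 0.59 (SE 0.045, adjusted p = 4.22e-06, edgeR). Chac1, which degrades glutathione, rose by 1.44 (SE 0.12), the pseudokinase Trib3 by 1.17 (SE 0.095) and the stress factor Ddit3 by 1.24 (SE 0.26). The arms did not overlap for Atf4, Trib3 and Chac1, whereas Ddit3 ran up to 13.6 CPM in ESC and from 9.09 CPM in NrESC. Ddit3 stood at 92.0 CPM in NrESC at passage 8, against a median of 19.2 over the 16 NrESC libraries. The asparagine synthetase Asns rose by 0.41 (SE 0.033) and the amino acid sensor kinase Eif2ak4 by 0.21 (SE 0.034). Sesn2, listed with the same response, rose by 0.20 (SE 0.054). At passage 8 it was lower in NrESC, with 95.8 CPM against 106 in ESC.

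The other partners changed by less than 1.5-fold. Atp1b1, a subunit of the sodium-potassium pump whose gradient drives sodium-coupled carriers, rose by 0.44 (SE 0.048, adjusted p = 3.15e-05, edgeR). Emb, a chaperone of monocarboxylate carriers, rose by 0.34, and Bsg, the chaperone of Slc16a1 and Slc16a3, fell by 0.11 (adjusted p = 0.0433, edgeR). The transferrin receptor Tfrc, the route of iron uptake, fell by 0.40 (SE 0.046, adjusted p = 4.03e-05, edgeR), and the lysosomal cystine exporter Ctns by 0.27. In mitochondria the calcium uniporter Mcu rose by 0.30 and the channel Vdac1 by 0.12, while Vdac2 fell by 0.14.

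Further motifs were searched in the promoter windows of the 133 matched members on both strands. A member counted as matched when any of its windows held the motif. The E-box CACGTG, read by factors such as Tfe3 and Myc, was found for 25 of 133 members (18.8%), against 8.09% of all 27025 promoter symbols. These symbols include noncoding genes, and the share among the expressed genes alone was not counted, so the 2 shares are not like for like. Only 19 of the 28 carriers changed by 1.5-fold or more had a window, and Slc7a5 and Slc1a5 had none. Among those with a window, the E-box was found for 0 of the 13 higher carriers and for 2 of the 6 lower ones (Slc5a1 and Slc6a16). The sterol response element TCACNCCAC was in 2 members, Slc2a8 and Slc23a2 (1.5%), against 1.44% of all. The LXR element DR4, a direct repeat with a spacer, was in no member's window and in 0.0962% of all, which says only that these letters are not in these windows. No overlap of motifs with each other was counted.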

How the data were processed

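RNA-seq tables of 32 libraries were used. Per the file headers, a table of RSEM expected counts and a table of TPM were deposited, both by gene symbol. The expected counts are unscaled, and the authors scaled the TPM for transcript length and library. The submitters' processing notes name STAR, Cufflinks 2.2.1, HTSeq 0.12.4, DESeq2, edgeR, RSEM and mm9, without roles; annotation and strand setting are not given in the sources used here. The kit does not mark strand, so overlapping antisense reads cannot be told apart. Counts (0.837% fractional) were rounded. RSEM divides reads shared between genes, and the share of 50-base words of each transcript found in other genes was computed from GENCODE transcripts of a later build.

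The members and lists were chosen with earlier results of these data known. Both libraries of a group were added up, which gave 8 pairs of an ESC and an NrESC sum. Genes were kept with filterByExpr (15036), and edgeR 4.0.16 (R 4.3.3, TMM scaling, quasi-likelihood) was fitted with passage as a factor, since members varied more between passages (median SD 0.151 and 0.204 log2 in ESC and NrESC) than between the libraries of a group (0.0678). The p-values were adjusted by Benjamini-Hochberg over all tested genes. Slopes used the 16 sums and single passages the libraries. The models were tested on simulated counts. Levels are TMM-scaled CPM, and fold changes are log2, NrESC over ESC. Alternatives were DESeq2 1.42.0, limma 3.58.1 on log2(TPM + 1), upper-quartile scaling, no filter, other CPM limits, a replicate block, and libraries or passages left out.

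Named genes were all members changed by 1.5-fold or more, the 3 highest by TPM in each class, called slopes, the 3 members nearest the CPM limit on each side, and partner genes changed by 1.5-fold. Other members and partners were named after their values were seen.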

Additional observations from a re-analysis of the deposited data

Results flagged for a closer look

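In each arm the 8 passage means of the 46 genes named by rule were searched for a highest or lowest value set far off from the other 7 (Dixon's test). Of 92 such sets 14 stood out, and 11 of the 14 were NrESC at passage 8. The usual rate of about 1 in 20 holds for independent sets only. The sets of an arm share the same libraries, and many of the genes were named for a difference that includes passage 8. The count can therefore not be set against that rate. These means of 2 libraries, in TMM-scaled CPM, were high for the amino acid carriers Slc7a5 (1015), Slc3a2 (694.7), Slc38a4 (470) and Slc1a1 (9.001). They were also high for the ion carriers Slc20a1 (323), Slc9a5 (32.7) and Slc8a2 (5.98), for the mitochondrial Slc25a23 (35.8) and for the hexose carrier Slc2a8 (35.3). Low values at the same passage were those of Slc37a3 (51.5) and Slc35a4 (40.05). At passage 0, ESC was high for Slc26a6 (10.6) and low for Slc36a4 (1.19), and NrESC was high for Slc7a2 (6.02). The labels give no batch or date, so a batch at passage 8 was not tested.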

How the results depend on the processing

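Of the 132 called members 108 kept their call in all 18 settings of the comparison over the passages. The settings with other CPM limits for members reuse the main fit, so no single call could be lost in them. With a limit of 5 CPM for members, 2 rather than 9 were lower by 1.5-fold or more. Leaving out each passage gave 75 to 82 higher and 38 to 49 lower, and 15 to 20 and 9 to 13 by 1.5-fold or more. The slopes in ESC rested on few passages and on the unit: 8 rose and 5 fell with DESeq2, 7 and 2 without passage 8, 0 and 0 without passages 0 and 2, 1 to 3 and 0 to 1 without a replicate, and none fell with upper-quartile scaling. The lower count at passage 0 was 13 to 17 without a library.

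Replicate numbers did not pair the samples, since their deviations correlated at -0.183 to 0.0387 across passages. With a replicate block on single libraries, 97 members were higher and 59 lower, the same counts as on single libraries without it. The block with library slopes gave 21 rising and 16 falling in ESC and 1 with a lower slope in NrESC. The block at passages 0, 8 and 14 gave 63, 96 and 55 higher and 20, 51 and 36 lower.

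Values close to 0 changed sign. Slc25a5 ran from -0.0314 to 0.0075 when a passage other than 8 was left out, and was 0.00224 without the filter, 0.000443 with upper-quartile scaling, 0.000467 without replicate 1 and 0.032 without passage 8. Slc4a11 ran from -0.0665 to 0.0313 without single passages, and Slc39a7 was -0.0042 with limma on TPM. The causes were not tested. Depth limits the members near 2 CPM, and 2 libraries per group limit single passages.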

Other observations

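Members differed in how much they varied among passages of the untreated arm. The coefficient of variation over the 8 ESC passage means was 58.5% for the sodium-glucose carrier Slc5a1, 48.9% for the glutamate carrier Slc1a1 and 31.4% for the lactate exporter Slc16a3. In NrESC it was 35.1%, 47.5% and 46.7%. ESC levels were highest at passage 0 for 57 of the 178 members and lowest at passage 8 for 5. NrESC levels were highest at passage 8 for 82, and lowest at passage 6 for 47 and at passage 8 for 37. Slc16a3 in NrESC stood at 47.2 CPM (passage 8) and then 202 CPM (passage 10), and its ESC level was lowest at passage 6, at 78.6 CPM, and highest at passage 14, at 196 CPM. These are values with no test.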
